A study of Mus musculus with 10 samples.

Results

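The family of miR-92, miR-25 and miR-363 is a group of microRNAs (miRNAs) that share the seed AUUGCAC, the bases at positions 2 to 8 with which a miRNA recognises its target mRNAs. It was described through 10 of the 1907 mature miRNA entries of the count table, taken by name: both arms of the miR-92a, miR-92b, miR-25 and miR-363 hairpins, and miR-32-5p. All 10 names were found in the table, where each carries the prefix mmu (mmu-miR-92a-3p, mmu-miR-92b-3p and so on). Small RNA was sequenced from mouse embryonic stem cells of strain background 129/Ola, all grown on gelatine in medium with 15% serum and 100 U/mL LIF, a cytokine that maintains such cells. The 5 groups, with 2 libraries each, were wild type (WT, whose libraries carry the name of the E14 line), Dgcr8_KO (Dgcr8 knockout), Drosha_KO (Drosha knockout), Dicer_KO (Dicer knockout) and Ago12_KO, which lacks both Ago1 and Ago2. How each knockout was made, and whether a group is 1 clone, is not stated in the labels. The libraries of WT and of Dicer_KO each have a code of their own. Those of Dgcr8_KO share a label prefix, and those of Ago12_KO share a different prefix, both of unstated meaning. No label ties replicates to separate cultures, so that p-values reflect the spread among these libraries alone, which may be technical.

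A canonical miRNA is cut from a long primary transcript by the Microprocessor, made of Drosha and its partner Dgcr8, and the hairpin is then cut by Dicer into a duplex. One strand of the duplex, the guide, is kept by an Argonaute protein such as Ago1 or Ago2, and the opposite strand is usually discarded. Here the guide is the 3p arm of miR-92a, miR-92b, miR-25 and miR-363 and the 5p arm of miR-32. The miR-17-92 cluster, which carries miR-92a, is known as a promoter of proliferation and survival, and mRNAs described as targets of the shared seed include those of the pro-apoptotic protein Bim and of the integrin subunit Itga5.

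The guide strands are shown first, because their shared seed defines the family while the remaining bases tell the members apart. Sequences are RefSeq's on GRCm38.p6, written 5′ to 3′, with the seed in capitals, and 9 of the 10 members had an entry there.
miR-92a-3p: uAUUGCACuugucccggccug
miR-92b-3p: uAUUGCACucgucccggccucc
miR-25-3p: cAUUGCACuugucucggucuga
miR-363-3p: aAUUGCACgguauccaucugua
miR-32-5p: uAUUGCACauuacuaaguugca
Counted from 1 at the 5′ end of miR-92a-3p, miR-92b-3p differed over the 21 shared positions by U10C and G21C alone, and miR-25-3p by U1C, C14U and C18U. miR-363-3p differed at 11 positions and miR-32-5p at 10, and in no case was a difference inside the seed. How reads with a mismatch were assigned is not given in the sources used here, so the split between miR-92a-3p and miR-92b-3p is less certain than that between the other members. The only other mouse miRNA of RefSeq with this seed was miR-367-3p, which had 6 counts over both WT libraries and at most 6 in any mutant group.

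miR-92a-3p is made from a pair of hairpins that can be told apart by their 5p arms alone, so both are shown with the mature arms in capitals.
Mir92-1: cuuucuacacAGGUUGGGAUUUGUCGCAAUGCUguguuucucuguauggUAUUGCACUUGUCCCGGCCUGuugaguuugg
Mir92-2: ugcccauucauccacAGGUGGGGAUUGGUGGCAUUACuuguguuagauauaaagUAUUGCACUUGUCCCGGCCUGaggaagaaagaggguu
On GRCm38.p6, Mir92-1 (chromosome 14, 115044427 to 115044506, plus strand) is part of an exon of the long non-coding RNA gene Mir17hg in the GENCODE annotation, downstream of Mir17, Mir18, Mir19a, Mir20a and Mir19b-1. Mir92-2 (chromosome X, 52741838 to 52741928, minus strand) and Mir363 (52741693 to 52741767), 71 bp apart, overlap no further gene and neighbour Mir106a, Mir18b, Mir20b and Mir19b-2. Mir25 (chromosome 5, 138165321 to 138165404, minus strand) is located inside Mcm7, which encodes a subunit of the replicative helicase, with Mir93 and Mir106b. Mir32 (chromosome 4, 56895229 to 56895298, minus strand) occupies an intron of Tmem245. Mir92b (chromosome 3, 89227116 to 89227198, minus strand) overlaps no further gene and has no other miRNA hairpin within 10000 bp. The 4 opposite arms with a sequence in RefSeq are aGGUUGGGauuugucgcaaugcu (miR-92a-1-5p), aGGUGGGGauugguggcauuac (miR-92a-2-5p), aGGGACGGgacguggugcaguguu (miR-92b-5p) and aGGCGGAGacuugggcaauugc (miR-25-5p), each with a seed of its own, again in capitals.

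The libraries held 37476 to 2357868 miRNA counts. A single count was worth between 0.424 and 26.7 CPM (the count over the library's total, times 1000000), and 3 counts, used here as the detection floor, between 1.27 and 80.1 CPM. Fold changes compare shares of the counted miRNA reads, so less of a member and more of other entries cannot be told apart, nor can fewer cells with a member and less of it per cell. Intervals and floors cover counting error only. A set of 7 entries that resemble fragments of other RNAs took 57.5% and 62.4% of the counts in the Dicer_KO libraries and 0.370 to 9.61% elsewhere. Markers of embryonic stem cells, 13 arms of the miR-290 to miR-295 and miR-302 clusters, took 17.3 and 18.5% of the WT counts, 15.8 to 20.7% in Dgcr8_KO and Drosha_KO, 10.3 and 11.3% in Ago12_KO and 1.55 and 1.63% in Dicer_KO. Fibroblast, blood and neural marker lists each took at most 1.13% of any library, and the blood list took 0.0427 and 0.0597% in Dicer_KO, 0.135 and 0.176% in WT, 0.350 and 0.564% in Drosha_KO, 0.473 and 0.478% in Dgcr8_KO and 0.866 and 1.13% in Ago12_KO. The part of these sets in the results was not tested. Other scalings moved log2 fold changes against WT by a median of -0.65 to -0.27 (TMM factors), -0.23 to 1.39 (size factors) and 0.03 to 1.31 (totals without the fragment-like entries), with 1.39 and 1.31 for Dicer_KO. Each median covered the entries with more than 3 counts in both groups, 412 for Dgcr8_KO, 275 for Drosha_KO, 214 for Dicer_KO and 415 for Ago12_KO. The other scalings also moved the split of calls over all entries, from 64 higher and 205 lower to 84 and 106 (size factors) or 84 and 116 (without fragment-like entries) for Dicer_KO, and from 138 and 124 to 109 and 179 (TMM factors) for Ago12_KO.

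In WT cells the family took 17.4% and 18.6% of all counts (95% Clopper-Pearson intervals 17.3 to 17.4% and 18.6 to 18.7%). The Dgcr8_KO libraries held 1.99% and 2.00%, the Drosha_KO libraries 2.22% and 2.30%, and the Dicer_KO libraries 0.756% and 0.833%. How far Dicer_KO lay below the other two depended on the totals: with the fragment-like entries left out of them, the mean share was 2.00% in Dicer_KO, 2.45% in Drosha_KO and 2.20% in Dgcr8_KO. Ago12_KO replicate 1 held 29.7% and replicate 2 held 18.2%. The Dgcr8_KO, Drosha_KO and Dicer_KO libraries lay below both WT libraries, while 1 of the 2 Ago12_KO libraries lay within the WT range. The exact two-sided permutation test of 2 against 2 libraries cannot give less than 0.333, the value found for Dgcr8_KO, Drosha_KO and Dicer_KO (0.667 for Ago12_KO). The 5 seed-sharing arms alone made up 17.8% ± 0.820 of the WT counts (mean ± SD, n = 2, as for all such values), 17.4% ± 2.62 of those of Ago12_KO, 0.763% ± 0.0344 of those of Dicer_KO, 2.24% ± 0.0447 of those of Drosha_KO and 1.98% ± 0.00534 of those of Dgcr8_KO. The 5 other arms made up 0.253% ± 0.0780 in WT and 6.59% ± 5.54 in Ago12_KO, with 10.5% in replicate 1 and 2.68% in replicate 2, so the mean of Ago12_KO stood above that of WT through arms without the shared seed.

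**Figure D1:**
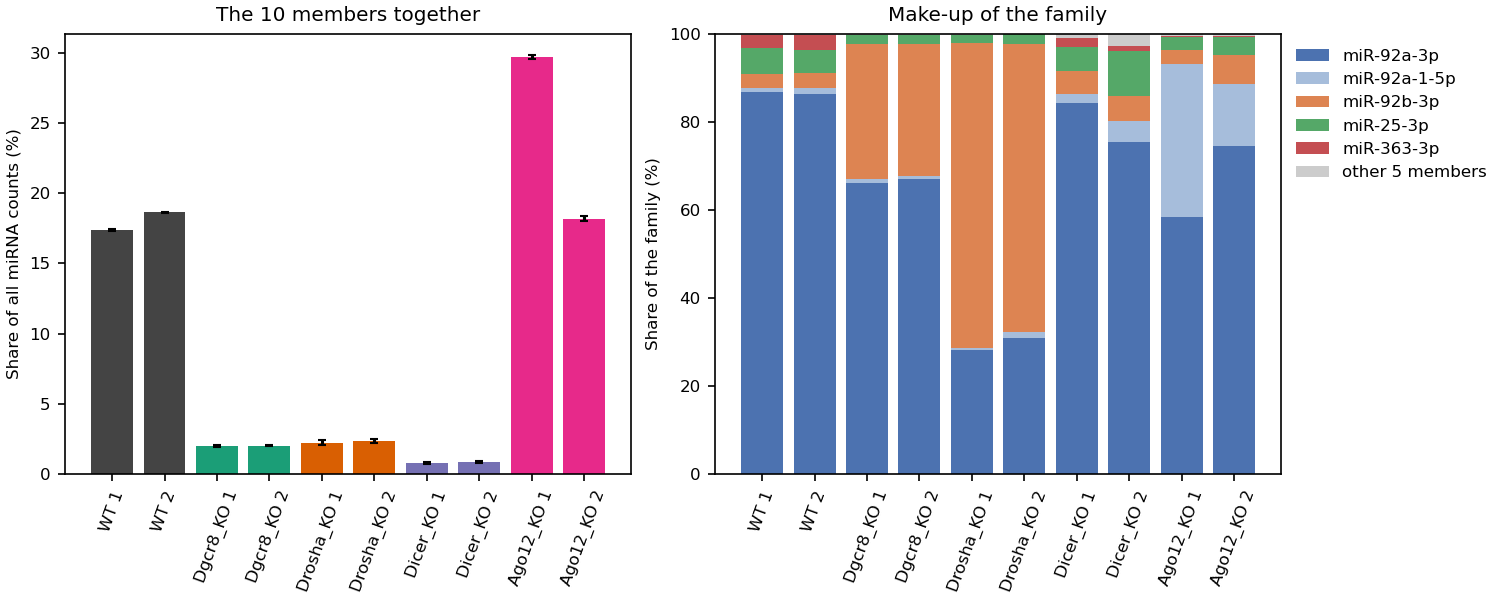
Share of all miRNA counts taken by the 10 members (left, %, bars with 95% Clopper-Pearson intervals) and make-up of the family (right, % of the family's counts) in each of the 10 libraries. The family falls from 17.4 and 18.6% in WT to at most 2.30% in Dgcr8_KO, Drosha_KO and Dicer_KO (lowest in Dicer_KO, whose mean is 2.00% when fragment-like entries are left out of the totals), miR-92b-3p fills 67.4% of it on average in Drosha_KO, and miR-92a-1-5p fills 34.7% and 14.2% of it in the Ago12_KO libraries.

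The make-up of the family differed between groups. In WT, miR-92a-3p made up 86.6% ± 0.332 of its counts, miR-25-3p 5.64% ± 0.355, miR-92b-3p 3.18% ± 0.106, miR-363-3p 3.11% ± 0.226 and miR-92a-1-5p 1.09% ± 0.315. In Drosha_KO miR-92b-3p led with 67.4% ± 2.79, ahead of miR-92a-3p with 29.4% ± 1.90, and in Dgcr8_KO it held 30.5% ± 0.447. In Dicer_KO, on far fewer counts, miR-92a-3p made up 79.8% ± 6.29, miR-25-3p 7.91% ± 3.32, miR-92b-3p 5.52% ± 0.358, miR-92a-1-5p 3.43% ± 1.95 and miR-363-3p 1.50% ± 0.767. miR-32-5p made up 1.41% ± 1.17 there, against 0.0358% ± 0.00972 in WT.

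miR-92a-3p, the main guide strand of the family, was the most abundant entry of both WT libraries, with 150940 and 161093 CPM. It stood at 13166 and 13363 CPM in Dgcr8_KO, 6251 and 7096 CPM in Drosha_KO, 6369 and 6271 CPM in Dicer_KO, and 173352 and 135467 CPM in Ago12_KO. WT and Ago12_KO overlapped at the top, Dgcr8_KO stood apart from all other groups, and Drosha_KO and Dicer_KO overlapped at the bottom. It ranked first and second in the Ago12_KO libraries, but 15th in both Dgcr8_KO libraries and 13th in both Dicer_KO libraries. It fell against WT in 3 mutants, with log2 fold changes of -4.63 for Dicer_KO (SE 0.24, edgeR adjusted p = 1.19e-07), -4.55 for Drosha_KO (SE 0.24, edgeR adjusted p = 2.41e-07) and -3.56 for Dgcr8_KO (SE 0.23, edgeR adjusted p = 7.17e-07). In Ago12_KO the log2 difference was -0.01 (SE 0.20, edgeR adjusted p = 0.965), but -0.66 (edgeR adjusted p = 0.0304) with TMM factors, over a range of 0.0304 to 1 across the alternatives.

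mmu-miR-25-3p, the guide of the hairpin inside Mcm7, was low in the same 3 mutants. Its WT libraries had 10235.5 and 10048.5 CPM, against 401 and 384 CPM in Dgcr8_KO, 380 and 521 CPM in Drosha_KO, 420 and 854 CPM in Dicer_KO, and 8843 and 7437 CPM in Ago12_KO. The Dgcr8_KO, Drosha_KO and Dicer_KO ranges lay far below WT and overlapped or adjoined each other, and both Ago12_KO libraries lay just below WT. Its log2 fold change was -4.01 for Dicer_KO (SE 0.38, edgeR adjusted p = 5.03e-06), -4.49 for Drosha_KO (SE 0.39, edgeR adjusted p = 3.63e-06) and -4.69 for Dgcr8_KO (SE 0.38, edgeR adjusted p = 2.30e-06). The Ago12_KO difference of -0.32 (SE 0.32) was not called (edgeR adjusted p = 0.417) with column totals, and was called with TMM factors at -0.96 (edgeR adjusted p = 0.0413, range 0.0413 to 0.741).

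**Figure D2:**
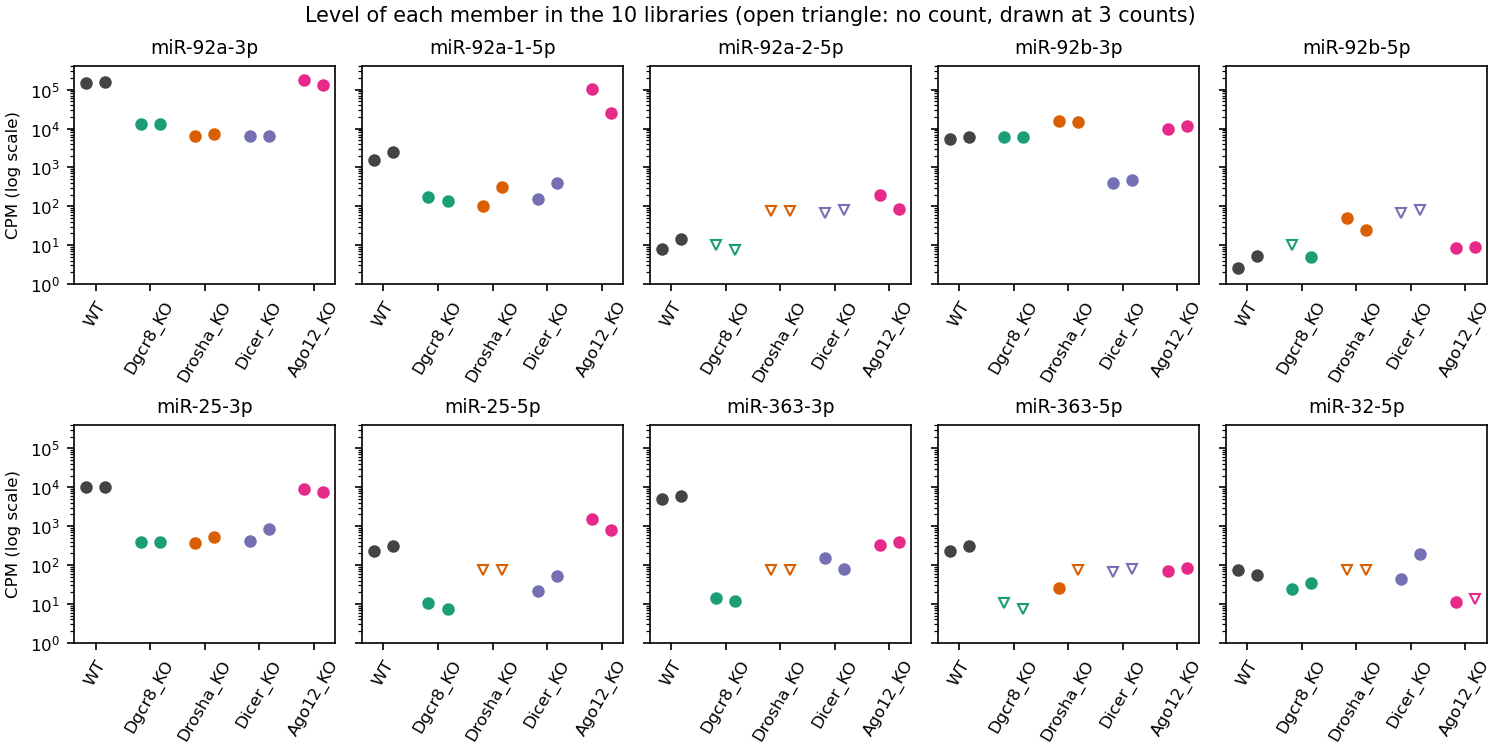
Level of each of the 10 members (CPM, log scale) in the 10 libraries, 2 per group, where an open triangle marks a library with no count at the level of 3 counts. miR-92a-3p, miR-25-3p and miR-363-3p lie below WT in Dgcr8_KO, Drosha_KO and Dicer_KO, miR-92b-3p lies below WT only in Dicer_KO, and miR-92a-1-5p, miR-92a-2-5p and miR-25-5p lie above WT in both Ago12_KO libraries.

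mmu-miR-363-3p, the guide from the X-linked cluster, was below WT in all 4 mutants. WT libraries had 5118 and 6089 CPM (12068 and 11836 counts), Ago12_KO libraries 335 and 388 CPM, Dicer_KO libraries 155 and 80.1 CPM (7 and 3 counts) and Dgcr8_KO libraries 13.8 and 12.2 CPM (4 and 5 counts), and the Drosha_KO libraries had no count. The ranges of the 4 groups with counts did not overlap, and unlike miR-92a-3p and miR-25-3p it was far below WT without Ago1 and Ago2. Its log2 fold change was -3.96 for Ago12_KO (SE 0.34, edgeR adjusted p = 1.18e-05), -5.54 for Dicer_KO (SE 0.42, edgeR adjusted p = 2.44e-06) and -8.74 for Dgcr8_KO (SE 0.45, edgeR adjusted p = 4.94e-07). In Drosha_KO it was called lower (edgeR adjusted p = 9.63e-07) and was at least 149-fold lower than in WT, with the floor set at 3 counts over both libraries.

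mmu-miR-92b-3p, a nearly identical guide from a hairpin of its own, behaved differently from miR-92a-3p. It had 5403 and 6078 CPM in WT, 6134 and 6020 CPM in Dgcr8_KO, 15439 and 15085 CPM in Drosha_KO, 9670 and 11861 CPM in Ago12_KO, and 398 and 480 CPM in Dicer_KO (18 counts in each). Drosha_KO lay highest, WT and Dgcr8_KO overlapped, and only the Dicer_KO libraries lay below WT. In Dgcr8_KO the log2 difference from WT was 0.08 (SE 0.26, edgeR adjusted p = 0.784) with column totals and -0.22 (edgeR adjusted p = 0.462) with TMM factors. It rose by 1.41 (SE 0.26, edgeR adjusted p = 7.42e-04) in Drosha_KO, beside a median of 0.81 over the 275 entries with more than 3 counts in both groups, and by 0.79 (edgeR adjusted p = 0.0243) with TMM factors. The Dicer_KO log2 fold change was -3.71 (SE 0.30, edgeR adjusted p = 2.01e-06). It also rose in Ago12_KO (0.91, SE 0.26, edgeR adjusted p = 0.0112), but not with TMM factors (0.26, edgeR adjusted p = 0.426), with size factors (0.66, edgeR adjusted p = 0.0570), without WT replicate 1 (edgeR adjusted p = 0.0872) or without Ago12_KO replicate 2 (edgeR adjusted p = 0.0571), over a range of 1.15e-06 to 0.426.

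The ratio of miR-92b-3p to miR-92a-3p counts within a library does not depend on how the library is scaled. It was 0.0358 and 0.0377 in the WT libraries, 0.0558 and 0.0876 in those of Ago12_KO, 0.0625 and 0.0766 in those of Dicer_KO, 2.47 and 2.13 in those of Drosha_KO, and 0.466 and 0.450 in those of Dgcr8_KO. All mutant libraries lay above both WT libraries, and the Drosha_KO libraries were the only ones with more miR-92b-3p than miR-92a-3p. All entries were then refitted with the miR-92a-3p count as the library size, so that a fold change is the difference between an entry's change and that of miR-92a-3p. miR-92b-3p changed by 3.64 more (SE 0.39, edgeR adjusted p = 5.58e-07) in Dgcr8_KO and by 5.97 more (SE 0.44, edgeR adjusted p = 9.77e-09) in Drosha_KO. In Dicer_KO the difference was 0.92 (SE 0.39, edgeR adjusted p = 0.0827), called without Ago12_KO replicate 1 (edgeR adjusted p = 0.0277) or Ago12_KO replicate 2 (edgeR adjusted p = 0.0277), over a range of 0.0277 to 0.269. In Ago12_KO it was 0.96 (SE 0.36, edgeR adjusted p = 0.0332), and was no longer called without WT replicate 1 (edgeR adjusted p = 0.167), WT replicate 2 (0.138), Dgcr8_KO replicate 1 (0.0742), Dgcr8_KO replicate 2 (0.0739) or Ago12_KO replicate 2 (0.120), without the low count filter (0.0807) and with the replicate number as a block (0.0952), over a range of 0.00823 to 0.167.

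In that fit, which tested 8 members, 5 differed from miR-92a-3p in Dgcr8_KO and 2 in Drosha_KO, where 79.2% and 62.3% of all 480 other entries did. In Dicer_KO 2 members differed (miR-92a-1-5p and miR-32-5p) and in Ago12_KO 7, where 37.9% and 52.3% of all entries did. The 7 include miR-92a-2-5p, which passed the filter on low counts only through Ago12_KO, so its call there carries no weight. The Dgcr8_KO count fell to 3 without Dgcr8_KO replicate 2 and the Dicer_KO count to 0 without Dicer_KO replicate 2, and to 1 without WT replicate 1, either Dgcr8_KO library or Dicer_KO replicate 1. miR-25-3p moved with miR-92a-3p to within 0.05 (SE 0.43, edgeR adjusted p = 0.933) in Drosha_KO and 0.62 (SE 0.42, edgeR adjusted p = 0.305) in Dicer_KO. Its further change in Dgcr8_KO was -1.14 (SE 0.40, edgeR adjusted p = 0.0159), no longer called without any 1 of the WT and Dgcr8_KO libraries (edgeR adjusted p from 0.0744 to 0.117). miR-363-3p changed beyond miR-92a-3p by -5.20 (SE 0.52, edgeR adjusted p = 4.47e-07) in Dgcr8_KO and by -3.91 (SE 0.42, edgeR adjusted p = 7.00e-06) in Ago12_KO, and differed by -0.92 (SE 0.53, edgeR adjusted p = 0.222) in Dicer_KO.

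mmu-miR-32-5p, the 1 guide of the family from a 5p arm, was scarce. It had 74.2 and 54.0 CPM in WT (175 and 105 counts), 24.2 and 34.3 CPM in Dgcr8_KO (7 and 14 counts), 44.2 and 187 CPM in Dicer_KO (2 and 7 counts), and 11.5 CPM and no count in Ago12_KO (4 and 0 counts). Drosha_KO libraries had no count, at a floor of 37.6 CPM for 3 counts over both libraries. In Drosha_KO it was not called with column totals (edgeR adjusted p = 0.0523). It was called lower there with TMM factors (edgeR adjusted p = 0.0285) and by DESeq2 with column totals (adjusted p = 0.0310). WT lay above Dgcr8_KO and Ago12_KO, and Dicer_KO spanned the WT values. It fell in Ago12_KO (log2 fold change -3.21, SE 0.81, edgeR adjusted p = 0.00677), at -8.27 without replicate 1, where no count is left and the value is no bound, and at -2.47 without replicate 2. The differences of -1.11 (SE 0.60, edgeR adjusted p = 0.119) in Dgcr8_KO and 0.78 (SE 0.76, edgeR adjusted p = 0.413) in Dicer_KO were not called. The former was called when only these groups were fitted (edgeR adjusted p = 0.0194, range 0.0194 to 0.350), and the latter with DESeq2 and its own size factors (2.24, adjusted p = 0.0229, range 0.0229 to 0.745).

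Of the opposite arms, mmu-miR-92a-1-5p from the Mir17hg hairpin stood far above WT in Ago12_KO. Its WT libraries had 1511 and 2453 CPM (3562 and 4768 counts) and its Ago12_KO libraries 103240 and 25784 CPM (36063 and 5915 counts). Both Ago12_KO libraries lay above both WT libraries and differed widely from each other, and it ranked 3 and 9 among all entries there against 69 and 52 in WT. It stood at 173 and 135 CPM in Dgcr8_KO, 101 and 323 CPM in Drosha_KO (4 and 13 counts) and 155 and 400 CPM in Dicer_KO (7 and 15 counts). It rose in Ago12_KO by 5.02 on the log2 scale (SE 0.71, edgeR adjusted p = 1.62e-04). Over its 19 alternatives the rise ran from 3.70 (without Ago12_KO replicate 1) to 5.70 (without Ago12_KO replicate 2) and was called in each.

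In the mutants of hairpin processing miR-92a-1-5p was low like its guide. Its log2 fold change was -2.86 for Dicer_KO (SE 0.71, edgeR adjusted p = 0.00512), -3.22 for Drosha_KO (SE 0.73, edgeR adjusted p = 0.00274) and -3.69 for Dgcr8_KO (SE 0.68, edgeR adjusted p = 5.52e-04). The Dicer_KO call was lost with size factors (-1.44, edgeR adjusted p = 0.144), with totals that leave out the fragment-like entries (-1.53, edgeR adjusted p = 0.113), with DESeq2 and its own size factors (-1.42, adjusted p = 0.177) and without Dicer_KO replicate 1 (-2.31, edgeR adjusted p = 0.0819), over a range of 2.52e-14 to 0.177.

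miR-92a-2-5p, from the X-linked hairpin, had 8.06 and 14.4 CPM in WT (19 and 28 counts) and 198 and 82.8 CPM in Ago12_KO (69 and 19 counts), and no count in the 6 other libraries. It passed the filter on low counts only through Ago12_KO, and its rise there of 3.66 (SE 0.58, edgeR adjusted p = 8.64e-04) is to be read with that. In Dgcr8_KO it was called lower (edgeR adjusted p = 0.0270), but not without WT replicate 2 or without either Dgcr8_KO library. By the detection floor it was at least 2.61-fold lower there than in WT. The counting interval of its ratio to WT reached up to 0.503. In Drosha_KO and Dicer_KO its WT level lay under the floor, so a loss was not detectable at this depth. In WT the 5p counts of Mir92-1 thus exceeded those of Mir92-2 by 8330 to 47, while the identical 3p arm cannot be divided between the hairpins.

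miR-25-5p had 228 and 305 CPM in WT and 1566 and 793 CPM in Ago12_KO (547 and 182 counts). Both Ago12_KO libraries lay above both WT libraries, and it rose by 2.15 (SE 0.37, edgeR adjusted p = 6.97e-04). In Dgcr8_KO it had 3 counts in each library and a log2 fold change of -4.91 (SE 0.56, edgeR adjusted p = 3.30e-05). In Dicer_KO its 3 counts put it at a ratio to WT of 0.138 (95% counting interval 0.0285 to 0.405). It was called lower there (edgeR adjusted p = 0.00750), but not with size factors (edgeR adjusted p = 0.207) or totals without the fragment-like entries (edgeR adjusted p = 0.156). DESeq2 with its own size factors did not call it either (adjusted p = 0.221). In Drosha_KO, with no count, miR-25-5p was at least 7.08-fold lower.

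miR-363-5p, unlike the other tested opposite arms, was lower in Ago12_KO. It had 230 and 305 CPM in WT and 68.7 and 82.8 CPM in Ago12_KO (24 and 19 counts), with no overlap. The log2 fold change was -1.83 (SE 0.41, edgeR adjusted p = 0.00406), not called without WT replicate 2 (-1.61, edgeR adjusted p = 0.0596, range 7.96e-06 to 0.0596). It was at least 62.2-fold lower in Dgcr8_KO and at least 7.37-fold lower in Dicer_KO, and its 1 count in Drosha_KO gave a ratio to WT of 0.0475 (95% counting interval 0.00120 to 0.265). miR-92b-5p had 6 and 10 counts in WT and at most 3 in any mutant library, did not pass the filter and was not tested with it.

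Counted over the 9 members tested, edgeR's quasi-likelihood test called 7 lower in Dgcr8_KO, beside 41.0% of all 481 entries lower and 32.4% higher. None was higher there, with 0 at an unadjusted p under 0.05 and 0 by DESeq2. In Drosha_KO 6 were lower and miR-92b-3p was higher, beside 31.6% and 26.2% of all entries. At an unadjusted p under 0.05, and by DESeq2 with either scaling, 7 were lower in Drosha_KO, miR-32-5p being added (edgeR adjusted p = 0.0523). In Dicer_KO 7 were lower, beside 42.6% lower and 13.3% higher. None was higher in Dicer_KO either, with 0 at an unadjusted p under 0.05, 0 by DESeq2 with column totals and 1 (miR-32-5p) by DESeq2 with its own size factors. In Ago12_KO 3 were lower (miR-363-3p, miR-363-5p and miR-32-5p) and 4 higher (miR-92a-1-5p, miR-92a-2-5p, miR-25-5p and miR-92b-3p), beside 25.8% and 28.7% of all entries. With TMM factors 5 were lower there, miR-92a-3p and miR-25-3p being added, and 3 higher, miR-92b-3p being lost. The filter on low counts keeps an entry that is high in 1 group, so these counts describe the members that passed it, and no more. Among the 4 higher in Ago12_KO, miR-92a-2-5p passed it only through that group.

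**Figure D3:**
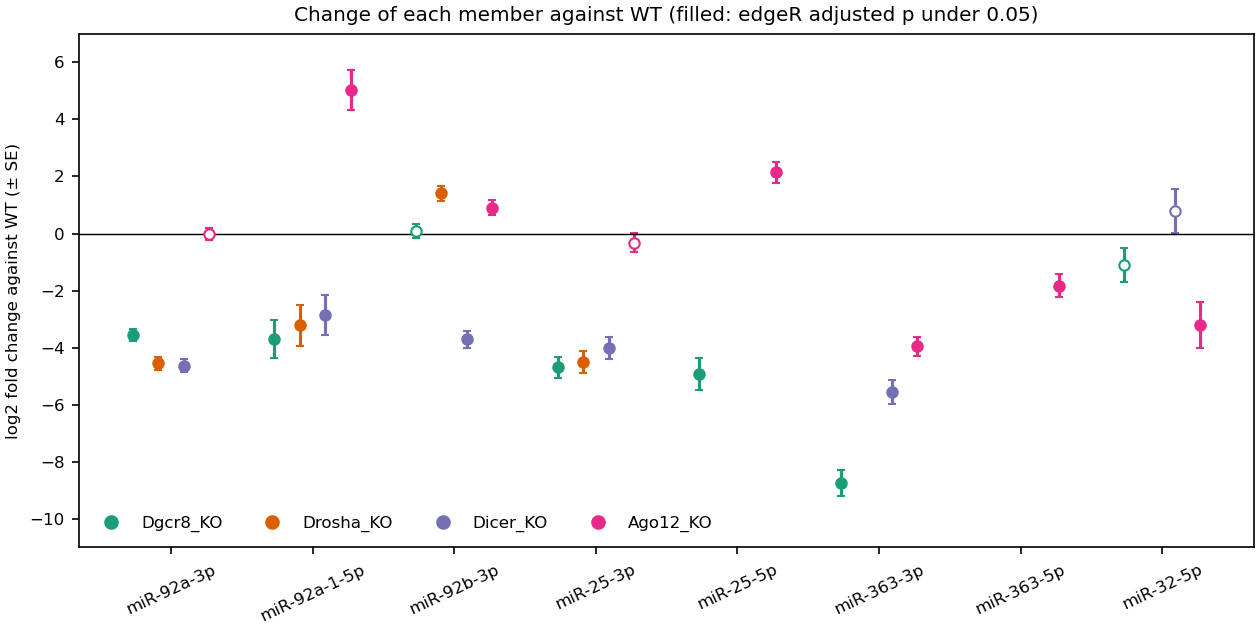
Log2 fold change of the members against WT (points, with SE bars from the edgeR fit), filled where the adjusted p was under 0.05, for members with more than 3 counts in both groups. miR-92a-2-5p and miR-92b-5p are not drawn. In Dgcr8_KO and Drosha_KO miR-92b-3p stands at 0.08 and 1.41 while miR-92a-3p and miR-25-3p lie below -3.5, and in Ago12_KO miR-92a-1-5p (5.02) and miR-25-5p (2.15) lie above their 3p partners.

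The balance of the arms was then tested within hairpins with limma on log2((5p + 0.5)/(3p + 0.5)) over 91 hairpins. In Ago12_KO the 5p share of miR-92a-1 (5p counts over 5p plus 3p counts) was 37.3% and 16.0%, against 0.991% and 1.50% in WT. That of miR-25 was 15.0% and 9.64%, against 2.18% and 2.94%, and that of miR-363 was 17.0% and 17.6%, against 4.30% and 4.77%. For each of the 3 hairpins both Ago12_KO libraries lay above both WT libraries. The log2 ratio rose by 4.77 (SE 0.75, limma adjusted p = 0.00178) for miR-92a-1, which was the greatest rise of all 91 hairpins, by 2.41 (SE 0.45, limma adjusted p = 0.00312) for miR-25 and by 2.17 (SE 0.61, limma adjusted p = 0.0202) for miR-363. The first rank is not firm. miR-200a came next with 4.43, and the rise of miR-92a-1 ran from 3.95 to 5.59 with single libraries left out. The arm balance of 46.2% of the hairpins was called in this comparison, in either direction. The miR-363 call was lost without any 1 of the WT and Ago12_KO libraries (limma adjusted p from 0.0719 to 0.0955).

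For miR-92a-1 and miR-25 the shift thus went with a higher 5p arm and a 3p arm near WT, while for miR-363 both arms were lower and the 3p arm more so. The 3p count of miR-92a pools both hairpins, so the share of miR-92a-1 is a lower limit for its own hairpin. In Dgcr8_KO, where 1.10% of hairpins were called, the 5p shares of miR-92a-1 (1.29% and 0.997%) and miR-25 (2.52% and 1.88%) lay near WT, with log2 differences of -0.09 (SE 0.75) and -0.01 (SE 0.45, limma adjusted p = 1.00 for both). In Drosha_KO, where 15.4% were called, miR-92a-1 stood at 1.59% and 4.35% (log2 difference 1.25, SE 0.75, limma adjusted p = 0.268), and the call for miR-363 rested on 1 count and the added 0.5, so no ratio is given. In Dicer_KO, where 49.5% were called, miR-92a-1 stood at 2.37% and 6.0% (log2 difference 1.74, SE 0.75, limma adjusted p = 0.0874), and miR-25 rose by 1.57 (SE 0.45, limma adjusted p = 0.0238) on 3 counts of its 5p arm, a call lost without WT replicate 1, WT replicate 2 or Dicer_KO replicate 1 (limma adjusted p = 0.141, 0.0847 and 0.0555).

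**Figure D4:**
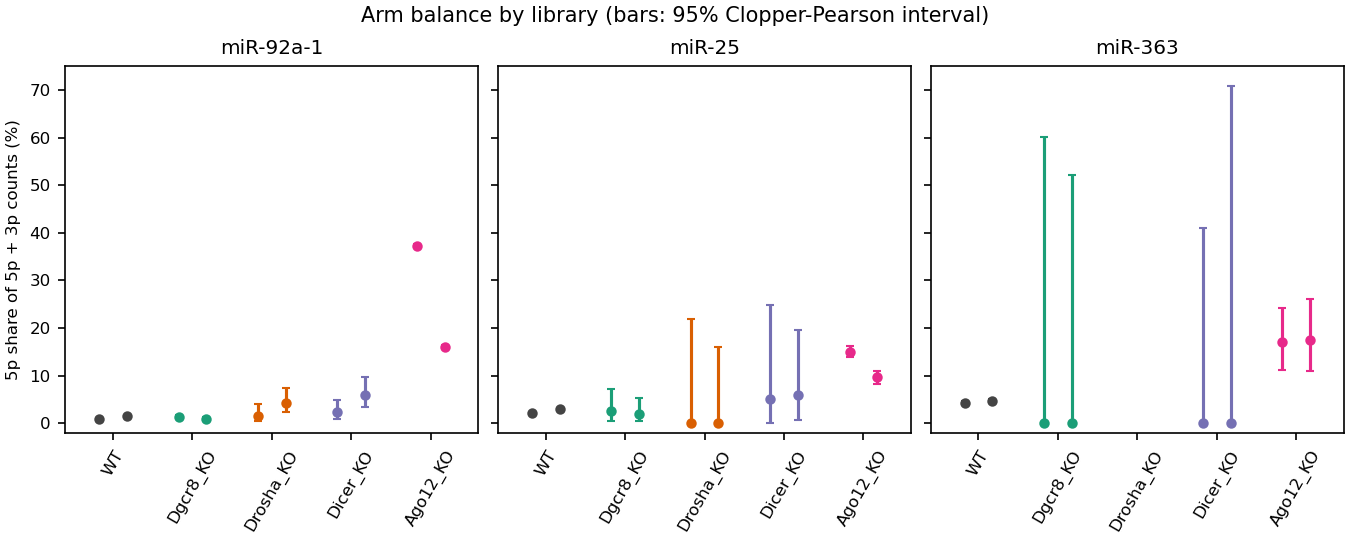
Share of 5p counts among the 5p and 3p counts of 3 hairpins (%, points per library with 95% Clopper-Pearson intervals, libraries with fewer than 3 counts of the hairpin left out). The Ago12_KO libraries lie at 37.3 and 16.0% for miR-92a-1, 15.0 and 9.64% for miR-25 and 17.0 and 17.6% for miR-363, above the WT libraries, and the intervals of miR-363 in Dgcr8_KO and Dicer_KO are wide.

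Dgcr8 and Drosha form 1 complex, so their knockouts were compared directly. miR-92a-3p was higher in Dgcr8_KO than in Drosha_KO by 0.99 (SE 0.21, edgeR adjusted p = 0.00781) and miR-92b-3p lower, by -1.33 (SE 0.26, edgeR adjusted p = 0.00565), and these 2 of 9 members were called beside 13.9% of all entries. Without Dgcr8_KO replicate 1 the adjusted p rose to 0.0559 and 0.0729, and without Dgcr8_KO replicate 2 to 0.0599 and 0.0921. With size factors miR-92a-3p was at 0.82 (edgeR adjusted p = 0.0513). The range over all alternatives was 2.43e-06 to 0.0599 for miR-92a-3p and 9.72e-20 to 0.0921 for miR-92b-3p. miR-25-3p differed by -0.20 (SE 0.37, edgeR adjusted p = 0.778).

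Between Dicer_KO and Drosha_KO, which lack successive cutting steps, 3 of 9 members were called, beside 43.9% of all entries. With size factors in edgeR, or without the fragment-like entries in the totals, 5 were called, and DESeq2 with its own size factors called 6. miR-92b-3p was lower in Dicer_KO by -5.12 (SE 0.32, edgeR adjusted p = 3.12e-07), and miR-363-3p was called higher (10 counts against none, at least 3.12-fold, edgeR adjusted p = 0.00341). miR-32-5p was also called higher (edgeR adjusted p = 0.0428), but its 2 and 7 counts, 44.2 and 187 CPM, stood against a Drosha_KO floor of 37.6 CPM, so that replicate 1 lay near the floor. Its call was lost without Dicer_KO replicate 2 (edgeR adjusted p = 0.207), without either library of WT, Dgcr8_KO or Drosha_KO (0.0513 to 0.0973) and when only these groups were fitted (0.0506). miR-92a-3p differed by -0.08 (SE 0.21, edgeR adjusted p = 0.800) with column totals. With the fragment-like entries out of the totals it was higher in Dicer_KO by 1.13 (edgeR adjusted p = 0.00197), with size factors by 1.19 (edgeR adjusted p = 0.00393), so its order in these groups follows the scaling. The same holds for miR-25-3p, which differed by 0.49 (edgeR adjusted p = 0.336) with column totals and was higher in Dicer_KO by 1.71 (edgeR adjusted p = 0.00725) and 1.78 (edgeR adjusted p = 0.00693) with these other scalings. miR-92b-3p was lower in Dicer_KO under all 19 alternatives, at -5.26 to -3.86.

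For Ago12_KO against Dicer_KO, miR-92a-2-5p was tested only because its Ago12_KO counts passed the filter. With it, all 9 members were called in this comparison, beside 47.4% of all entries. Without Dicer_KO replicate 2 it was 5, and it was 6 with size factors, with totals that leave out the fragment-like entries or with DESeq2 and its own size factors, each of which lost miR-363-3p, miR-92a-2-5p and miR-363-5p. miR-92a-3p was higher in Ago12_KO by 4.61 (SE 0.24, edgeR adjusted p = 3.66e-07), miR-92b-3p by 4.62 (SE 0.31, edgeR adjusted p = 1.00e-06), miR-25-3p by 3.69 (SE 0.37, edgeR adjusted p = 1.84e-05) and miR-92a-1-5p by 7.88 (SE 0.84, edgeR adjusted p = 2.50e-05). miR-363-3p was higher by 1.59 (SE 0.43, edgeR adjusted p = 0.0123), but stood at 0.32 (edgeR adjusted p = 0.688) with totals that leave out the fragment-like entries, -0.03 (edgeR adjusted p = 1) with size factors and 1.22 (edgeR adjusted p = 0.0691) without Dicer_KO replicate 2. miR-32-5p was lower, by -3.99 (SE 1.07, edgeR adjusted p = 0.0120) on 4 counts against 9, and not called without Dicer_KO replicate 2 (edgeR adjusted p = 0.241). These comparisons share libraries with those against WT.

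The neighbours of the members in their primary transcripts were counted in the same way. Of the 10 other arms of the miR-17-92 cluster, 7 were lower and 2 higher in Dgcr8_KO, 5 lower in Drosha_KO, 6 lower and 1 higher in Dicer_KO, and 3 lower and 2 higher in Ago12_KO. These are to be set beside the shares of all entries given above, and the Ago12_KO counts are near those shares (25.8% lower and 28.7% higher), so they say nothing particular of the cluster. miR-17-5p, a guide with another seed from the transcript of Mir92-1, stood at 1591 ± 47.6 CPM in WT, 2751 ± 149 CPM in Dgcr8_KO, 2332 ± 210 CPM in Drosha_KO, 113 ± 66.3 CPM in Dicer_KO and 451 ± 9.88 CPM in Ago12_KO. miR-19b-3p, made like miR-92a-3p from both clusters, went from 2555 ± 154 CPM in WT to 345 ± 73.2 CPM in Dgcr8_KO, 250.1 ± 67.3 CPM in Drosha_KO and 157 ± 3.76 CPM in Dicer_KO, and stood at 1771 ± 742 CPM in Ago12_KO. Of the 5 tested neighbours of miR-363 on the X chromosome 3 were lower in Ago12_KO, 3 in Dicer_KO, 4 in Drosha_KO and 5 in Dgcr8_KO. Of the 4 other arms of the miR-106b-25 cluster 4, 2, 2 and 3 were lower in that order, and none of either list was higher. With 5 and 4 arms, these counts are too few to set apart from the shares of all entries. Among them miR-93-5p stood at 3874 ± 3.40 CPM in WT, 2498 ± 155 CPM in Dgcr8_KO, 2466 ± 302 CPM in Drosha_KO, 517 ± 51.3 CPM in Dicer_KO and 1901 ± 190.5 CPM in Ago12_KO, so that it kept more of its WT level than miR-25-3p in the Microprocessor mutants and less in Ago12_KO.

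Outside the family, the profiles nearest to that of miR-92a-3p over the 5 groups were those of miR-30e-5p, miR-379-5p, miR-151-3p, miR-151-5p and miR-370-5p. The measure was the Euclidean distance between log2(CPM + 1) group means, each centred on its own mean, over 291 entries with at least 50 CPM in WT. The distance was 1.07 for miR-30e-5p and 1.11 for miR-151-3p, against a median of 4.56 over the 291 entries. miR-370-5p had no count in Drosha_KO and Dicer_KO and 1.22 CPM in Dgcr8_KO, and miR-379-5p had 11.1 CPM in Dicer_KO, all under the floors of 37.6 CPM (Drosha_KO), 36.3 CPM (Dicer_KO) and 4.30 CPM (Dgcr8_KO), so the distances and ranks of these 2 depend on the added 1. miR-30e-5p had mean levels of 7962 CPM in WT, 12939 CPM in Ago12_KO, 659 CPM in Dicer_KO, 750.0 CPM in Drosha_KO and 1798 CPM in Dgcr8_KO.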

How the data were processed

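The deposited file gives, for 10 libraries, whole-number counts of reads for every mature miRNA, without normalization. Bowtie and the mm10 build are named per the submitters' processing notes. The sources used here do not give versions, the counting tool, the miRNA annotation or the handling of reads with several matches. Libraries came from 1 ug of total RNA, per the labels. Members, lists and tests were chosen with earlier results of these data known. The main test was the quasi-likelihood test of edgeR 4.0.16 in R 4.3.3, fitted to the 5 groups together (5 residual degrees of freedom). Column totals served as library sizes, because other factors rest on a majority of unchanged entries. filterByExpr (minimum count 10, CPM minimum 38.54, minimum total 15) kept 481 of 1907 entries and 9 of 10 members, and Benjamini-Hochberg adjusted p under 0.05 made a call. Standard errors were derived from each fold change and F statistic. No fitted fold change is given for a member with 3 counts or fewer in a group. Arms were tested with limma 3.58.1 on hairpins averaging 20 or more counts per arm. Intervals are exact (scipy 1.17.1). The edgeR and limma tests were first tested on simulated data. Alternatives were TMM factors, size factors, totals without 7 fragment-like entries, no filter, a mean of at least 10 CPM, only the groups compared, a replicate block, DESeq2 1.42.0, a pseudocount of 2 or a minimum mean of 10 in the arm test, and omission of single libraries (a lone library then takes its spread from the remaining groups). Replicates differed by more than counting error (chi-square per degree of freedom 3.88 to 63.9). Batch cannot be told apart from group. All 10 members are named by rule, with miR-17-5p, miR-19b-3p, miR-93-5p, miR-367-3p and the 5 nearest profiles.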

Additional observations from a re-analysis of the deposited data

How the results depend on the processing

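Of the values of single members and hairpins under the alternatives, 1076 kept direction and side of the threshold. With the direction kept, 43 lost a call and 18 gained one. The direction changed in 30, some of which also gained or lost a call. Members with 3 counts or fewer in a group were left out of this tally, though calls of some of them changed as well. Of the counts and shares, 296 stayed within 1.5 times or 1 SD and 28 did not. The cause was not tested. With TMM factors, 5 members were lower in Ago12_KO (3 with column totals), and miR-92b-3p in Dgcr8_KO stood at -0.22, miR-25-3p in Dgcr8_KO against Drosha_KO at 0.10 and miR-92a-3p in Dicer_KO against Drosha_KO at 0.27. With size factors, 1 member differed between Dgcr8_KO and Drosha_KO (2 in the main test) and 5 between Dicer_KO and Drosha_KO (3), where miR-92a-3p stood at 1.19, and miR-363-3p in Ago12_KO against Dicer_KO stood at -0.029. Without fragment-like entries in the totals, 5 members differed between Dicer_KO and Drosha_KO, miR-92a-3p stood there at 1.13 and in Ago12_KO against WT at 0.014, and the family's share was 2.20% in Dgcr8_KO, 2.45% in Drosha_KO and 2.00% in Dicer_KO. With a mean of at least 10 CPM as filter, 2 members were higher in Drosha_KO (1): miR-92b-5p was added (edgeR adjusted p = 0.0453), which reached that mean through its 3 counts in Drosha_KO (37.7 CPM against 3.84 CPM in WT, a ratio of 10.1 with a 95% counting interval of 1.89 to 35.3). DESeq2 with its own size factors called 1 member higher in Dicer_KO (0) and 6 between Dicer_KO and Drosha_KO, with miR-92a-3p at 1.19, and put miR-363-3p in Ago12_KO against Dicer_KO at -0.039. For arm balance, a pseudocount of 2 gave 1 call in Dgcr8_KO (0), 2 in Drosha_KO (1) and 3 in Dicer_KO (1), with miR-25 in Dgcr8_KO at 0.49. Added were miR-363 in Dgcr8_KO (no 5p count and 9 of the 3p arm) and in Dicer_KO (none and 10), miR-25 in Drosha_KO (none and 36) and miR-92a-1 in Dicer_KO. With an empty 5p arm the ratio follows the pseudocount. A minimum mean of 10 counts gave 2, 2 and 5 calls in Drosha_KO, Dicer_KO and Ago12_KO (1, 1 and 3), the added ones being of hairpins outside the main arm test.

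With single libraries left out, the calls ranged from 0 to 2 for Dgcr8_KO against Drosha_KO, from 5 (without Dicer_KO replicate 2) to 9 for Ago12_KO against Dicer_KO, and from 0 to 1 for arms in Dicer_KO. Relative to miR-92a-3p they ranged from 3 to 6 in Dgcr8_KO and from 0 to 3 in Dicer_KO. Against WT, miR-92b-3p in Dgcr8_KO ranged from -0.000185 to 0.17, miR-32-5p in Dicer_KO from -0.54 to 1.54 and miR-92a-3p in Ago12_KO from -0.20 to 0.15. Between Dgcr8_KO and Drosha_KO, miR-92a-1-5p ranged from -1.08 to 0.59 and miR-25-3p from -0.41 to 0.047. Between Dicer_KO and Drosha_KO, miR-92a-3p ranged from -0.17 to 0.016, miR-92a-1-5p from -0.46 to 1.42 and miR-25-3p from -0.10 to 0.92. Relative to miR-92a-3p, miR-92a-1-5p in Dgcr8_KO ranged from -0.40 to 0.21 and miR-25-3p in Drosha_KO from -0.10 to 0.17. The arm balance of miR-92a-1 in Dgcr8_KO ranged from -0.39 to 0.21, of miR-25 in Dgcr8_KO from -0.23 to 0.21 and of miR-25 in Drosha_KO from -0.16 to 0.31. None of these values of single members was called. The differences between replicates 1 and 2 of a group, over the entries tested, correlated between groups at -0.045 to 0.12. No effect shared by libraries of the same replicate number was thus seen. With the number as a replicate block, miR-92b-3p relative to miR-92a-3p in Ago12_KO (0.95, edgeR adjusted p = 0.0952) lost its call, and no other count or call changed side.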

Other observations

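Among the hairpins in the arm test, the others of the same clusters had the opposite shift in Ago12_KO or none that was called. The log2 ratio of 5p to 3p counts changed by -2.49 for miR-18a (limma adjusted p = 0.00187) and by -2.01 for miR-106b (limma adjusted p = 0.0215). It differed by -1.32 for miR-17 (limma adjusted p = 0.0644), -1.06 for miR-20a (limma adjusted p = 0.486) and 0.58 for miR-93 (limma adjusted p = 0.465). For the neighbours of miR-363 it differed by -1.48 (miR-18b, limma adjusted p = 0.142) and -0.57 (miR-20b, limma adjusted p = 0.565). In WT the 5p arm of these hairpins was the more abundant. Its log2 ratio to the 3p arm was 1.94 for miR-18a, 0.51 for miR-106b, 3.20 for miR-17, 3.94 for miR-20a, 5.04 for miR-93, 2.00 for miR-18b and 3.89 for miR-20b. The 5p arm of miR-92a-1, miR-25 and miR-363 was the less abundant. A fall of the ratio in the former, like a rise in the latter, is thus a relative gain of the less abundant arm. Whether such a gain is particular to these clusters was not tested. Of all 91 hairpins, 46.2% were called in Ago12_KO, in either direction. The hairpins from outside the family were picked after their values were seen.

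miR-32-3p, the arm opposite to the guide miR-32-5p, had 23.3 and 35.5 CPM in WT and 42.9 and 52.3 CPM in Ago12_KO (15 and 12 counts). Its log2 difference of 0.68 was not called (edgeR adjusted p = 0.230), beside the fall of miR-32-5p.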
